A study of Mus musculus with 8 samples.

Results

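The endogenous opioid system of the medial entorhinal cortex (MEC) was examined through 7 genes, chosen by name as the opioid peptide precursors Penk, Pdyn and Pnoc and the opioid receptors Oprm1, Oprd1, Oprk1 and Oprl1, out of 38553 genes in the RNA-Seq table. All 7 were found, and 5 of them passed the filter for a test across genes. RNA was taken from dorsal and ventral MEC in 13 male C57BL/6JolaHsd mice aged 8 weeks, with no treatment named. From each mouse a 400 µm sagittal slice held the right MEC, whose dorsal and ventral parts were dissected apart. The mice formed 4 groups, and tissue of 3 or 4 mice was pooled by region within a group, which gave 4 dorsal and 4 ventral libraries. Both regions therefore came from the same animals, and a library stands for a pool and not for a mouse.

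The regions of the libraries needed care. The columns are headed D1 to D4 and V1 to V4, but the regional means in the comparison table equal the column means only if D1, V1, D2 and V2 are dorsal and D3, V3, D4 and V4 ventral. That assignment matched for 24180 of 24195 genes with a value (within 0.1%), against 1193 genes for the headers, and it was used here although it goes against the header of 4 libraries. Values under the headers' regions are given beside Penk and Oprm1, and those of the other 5 genes and the ratios with the other alternatives at the end. The 8 libraries resembled each other closely (Pearson's r on log2(FPKM + 1) of 0.977 to 0.985 between dorsal pairs, 0.971 to 0.984 between ventral pairs and 0.965 to 0.982 across regions). Relative depth ran from 0.900 to 1.225 in dorsal and from 0.833 to 1.182 in ventral libraries. It was estimated indirectly, from the FPKM that a single fragment gives in genes of very low level. Fragment counts themselves were not examined. Markers of cortical excitatory neurons were present in both regions, with Slc17a7, the vesicular glutamate transporter of cortical neurons, at a mean of 107 FPKM in dorsal and 105 FPKM in ventral MEC.

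Opioid peptides are cut from large precursor proteins in neurons and released with other transmitters. Penk encodes the enkephalins, which act mainly on the delta and mu receptors, Pdyn encodes the dynorphins, which prefer the kappa receptor, and Pnoc encodes nociceptin, the ligand of the nociceptin receptor. The receptors Oprm1 (mu), Oprd1 (delta), Oprk1 (kappa) and Oprl1 (nociceptin) couple to inhibitory Gi/o proteins, through which they open potassium channels, close presynaptic calcium channels and lower cyclic AMP. In cortex, enkephalin and the mu receptor are both found in GABAergic interneurons, and mu receptor agonists reduce the output of such cells.

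What separates the precursors is how many opioid peptides each carries. All classical opioid peptides begin with tyrosine, glycine, glycine and phenylalanine, and nociceptin begins with phenylalanine in place of the tyrosine. In the coding sequences of GENCODE M21 (GRCm38), the codons of this core occurred 7 times in the 267 codons of Penk, 3 times in the 247 codons of Pdyn and, in the nociceptin form, 1 time in the 211 codons of Pnoc. All 11 copies followed directly on a pair of lysine or arginine codons, the signal at which processing enzymes cut. Of 22297 genes with a coding transcript, 73 (0.327%) held the tyrosine form in frame. The windows below show 2 codons before the core, the core in capitals and 3 codons after it. They are given because the codon after the core separates methionine from leucine forms. It is methionine (atg) in 6 Penk copies and leucine in 1 Penk copy and the 3 Pdyn copies (ctg or ttg). That codon alone does not tell Leu-enkephalin, alpha-neoendorphin and dynorphin A apart, since all of them carry leucine there. All lie on the minus strand, in coding exons, at chr4:4134328-4134354 and chr4:4133935-4133961 for Penk, chr2:129688232-129688258 and chr2:129688124-129688150 for Pdyn, and chr14:65404872-65404898 for Pnoc.
Penk, copy 1, Met-enkephalin: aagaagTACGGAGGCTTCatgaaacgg
Penk, copy 6, Leu-enkephalin: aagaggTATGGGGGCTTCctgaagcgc
Pdyn, copy 1, alpha-neoendorphin: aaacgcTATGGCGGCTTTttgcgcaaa
Pdyn, copy 2, dynorphin A: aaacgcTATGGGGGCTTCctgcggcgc
Pnoc, nociceptin: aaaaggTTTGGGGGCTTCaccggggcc

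Of the 7 genes, Penk and Oprm1 were higher in ventral MEC, the gene of the enkephalin precursor by 1.77-fold and that of the mu receptor by 1.60-fold. The other 3 genes in the fit, Pnoc, Oprd1 and Oprl1, did not pass the test. Pdyn and Oprk1 lay too low for the fit, and their regions overlapped. The test was limma on log2(FPKM + 1) over 13674 genes, where FPKM is mapped fragments scaled to exon length and to library size. A gene was called V>D or D>V (higher in ventral or in dorsal MEC) if its p, adjusted by Benjamini-Hochberg, was under 0.05 and its regional means differed by over 20%. Over all genes tested 3.60% were called, 1.45% V>D and 2.15% D>V, and the libraries of the regions did not overlap for 11.1%, 4.95% in the V>D and 6.17% in the D>V direction. Among the 5 of 7 members in the fit, 2 were called, both V>D, and the same 2 were apart. The median log2 ratio of ventral to dorsal mean was 0.28 over these 5 and -0.01 over all genes tested. Since the members were chosen with earlier results of these data known, these comparisons describe the group and do not test it.

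**Figure D1:**
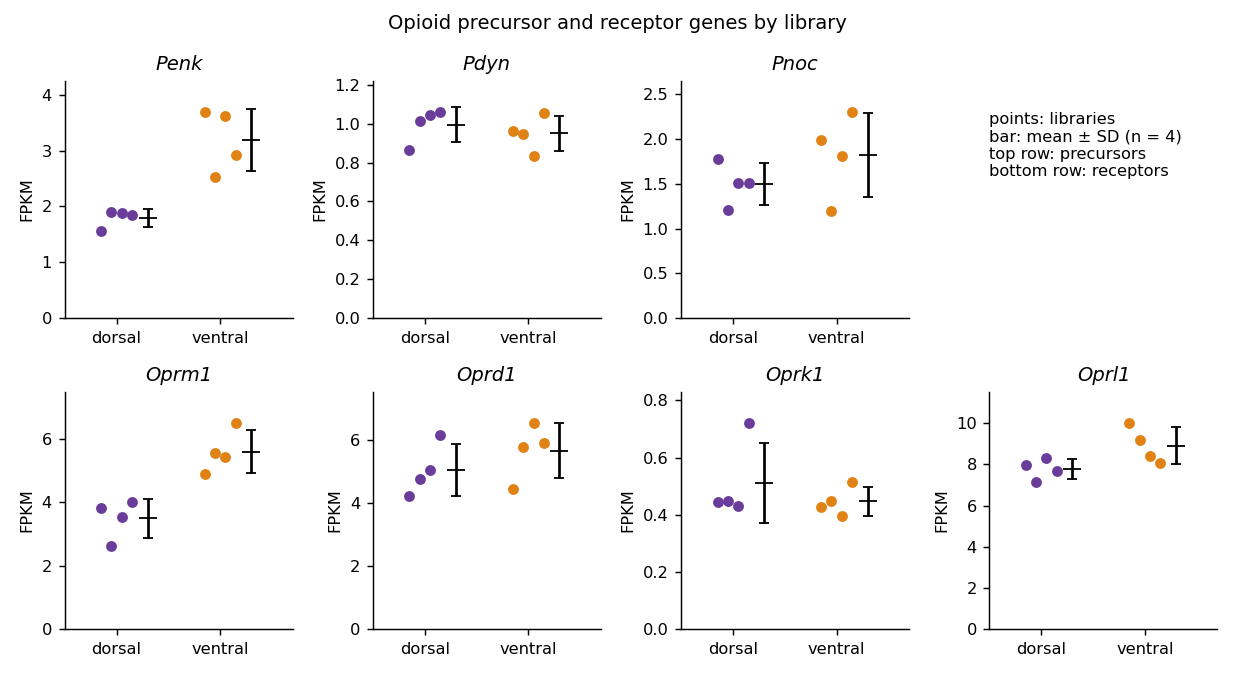
FPKM of each opioid gene in each library (points; dorsal purple, ventral orange) with the mean ± SD of each region (n = 4), on axes that start at 0. The regions are apart for Penk and Oprm1 and overlap for the other 5 genes.

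Penk (ENSMUSG00000045573, chr4:4133531-4138819, minus strand, GRCm38) was measured at 1.56, 1.90, 1.89 and 1.85 FPKM in the dorsal libraries D1, V1, D2 and V2. In the ventral libraries D3, V3, D4 and V4 it was at 3.69, 2.53, 3.62 and 2.92 FPKM. The dorsal values were close together apart from the lowest, D1, and the ventral values spread more widely, yet the lowest ventral library was above the highest dorsal library. The means were 1.80 ± 0.162 (SD, n = 4) and 3.19 ± 0.562 FPKM (SD, n = 4), a log2 ratio of 0.83. On the log2(FPKM + 1) scale the difference was 0.57 ± 0.11 (SE, 95% interval 0.32 to 0.82, limma adjusted p = 0.0204). The exact permutation test of the 2 regions gave p = 0.0286 (two-sided), the smallest value that 70 arrangements allow.

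The call for Penk depended on which libraries were in the fit. When single libraries were omitted, the log2 ratio stayed between 0.75 and 0.92, and the limma adjusted p ran from 0.0121 to 0.0698. The call was lost without D1 (0.0568), V1 (0.0574), V2 (0.0507), D3 (0.0698) or D4 (0.0644), so it held in 3 of 8 such fits. Under the headers' regions the log2 ratio was -0.23 (adjusted p = 0.972). In GENCODE M21 the exons of Penk share 233 bases (14.3% of its 1634 exonic bases) with A830012C17Rik on the other strand, which was listed at 0 in all libraries.

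Pnoc (ENSMUSG00000045731, chr14:65400673-65425472, minus strand), the nociceptin precursor, was at 1.78, 1.21, 1.51 and 1.51 FPKM in the dorsal and at 1.99, 1.20, 1.81 and 2.30 FPKM in the ventral libraries, in the same order. The lowest value of all was a ventral library, V3, and the highest was also ventral, V4. The means of 1.50 ± 0.235 and 1.82 ± 0.466 FPKM (SD, n = 4 each) gave a log2 ratio of 0.28. The difference on the log2(FPKM + 1) scale was 0.17, with a 95% interval from -0.14 to 0.47 (limma adjusted p = 0.637), which includes 0 and reaches into the interval of Penk.

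Pdyn (ENSMUSG00000027400, chr2:129686565-129699844, minus strand), the dynorphin precursor, lay near 1 FPKM everywhere. It was at 0.862, 1.01, 1.04 and 1.06 FPKM in the dorsal and at 0.964, 0.946, 0.835 and 1.05 FPKM in the ventral libraries. The regions overlapped almost fully, with means of 0.995 ± 0.0902 and 0.950 ± 0.0897 FPKM (SD, n = 4 each). The ventral mean was lower by 0.0448 FPKM (value -0.0448, exact permutation test, two-sided p = 0.486). Penk and Pdyn, which both encode classical opioid peptides, thus stood at a mean of 2.50 and 0.972 FPKM over the 8 libraries.

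Oprm1 (ENSMUSG00000000766, chr10:6758506-7038198, plus strand), the mu receptor at which morphine acts, was at 3.81, 2.62, 3.54 and 4.01 FPKM in the dorsal libraries D1, V1, D2 and V2. In the ventral libraries D3, V3, D4 and V4 it was at 4.89, 5.54, 5.43 and 6.51 FPKM. Every ventral library exceeded every dorsal one, with the dorsal V1 lowest and the ventral V4 highest. The means were 3.49 ± 0.612 and 5.59 ± 0.674 FPKM (SD, n = 4 each), a log2 ratio of 0.68. On the log2(FPKM + 1) scale the difference was 0.56 ± 0.12 (SE, 95% interval 0.30 to 0.82, limma adjusted p = 0.0277). The exact permutation test gave p = 0.0286 (two-sided), again the smallest possible.

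The call for Oprm1 was as near the threshold as that for Penk. Leaving out each library kept the log2 ratio between 0.56 and 0.75, with limma adjusted p from 0.0398 to 0.0702. The call was lost without V1 (0.0622), D2 (0.0656), V3 (0.0520), D4 (0.0696) or V4 (0.0702), and held in 3 of 8 such fits. No single omission kept the calls for Penk and Oprm1 together. Admitting genes down to 0.1 FPKM whatever their alignment status moved the adjusted p of Oprm1 to 0.0553. Under the headers' regions its log2 ratio was 0.08 (adjusted p = 0.995).

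**Figure D2:**
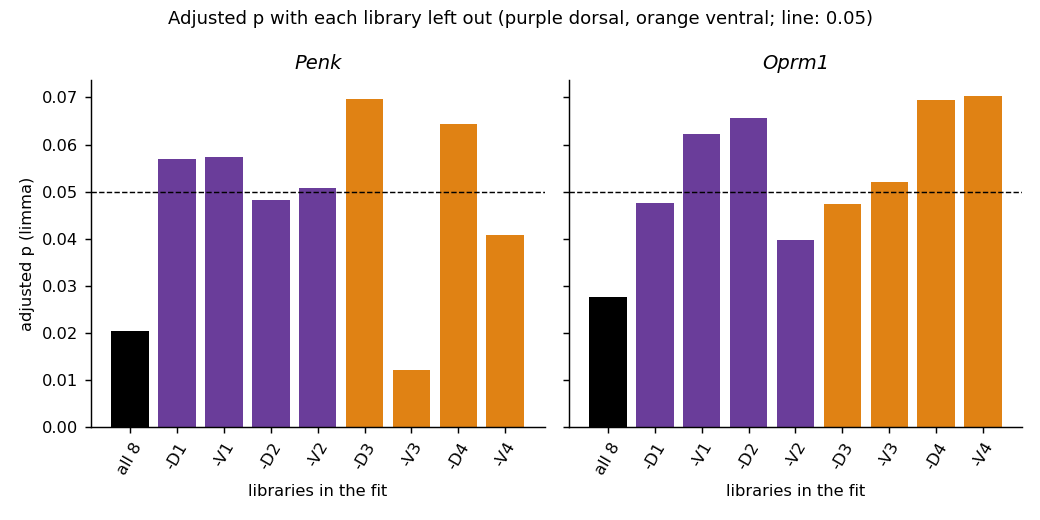
Adjusted p of Penk and Oprm1 in the limma fit with all 8 libraries (black) and with each named library left out (purple dorsal, orange ventral), with a line at 0.05. Bars of each gene lie on both sides of the line, from 0.0121 to 0.0698 for Penk and from 0.0398 to 0.0702 for Oprm1 when a library is left out.

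Oprm1 shares its locus with Ipcef1 (chr10:6885796-7052478, minus strand), a gene on the opposite strand. In GENCODE M21, 96 exonic bases, 1.19% of the exonic bases of Oprm1, lie in both. Ipcef1 was the more abundant, at 22.3 ± 3.46 FPKM in dorsal and 24.7 ± 2.95 FPKM in ventral MEC (SD, n = 4 each). Its log2 ratio was 0.15 and it did not pass the test (limma adjusted p = 0.627). Within each library the ratio of Oprm1 to Ipcef1 was 0.148, 0.149, 0.161 and 0.167 in D1, V1, D2 and V2, and 0.202, 0.223, 0.255 and 0.228 in D3, V3, D4 and V4. These ratios were tighter than the levels themselves and did not overlap between the regions. The mean ratio was 1.45-fold higher in ventral MEC, a log2 difference of 0.54 (exact permutation test, two-sided p = 0.0286, 0.0571 after adjustment over the 2 ratios tested).

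Oprd1 (ENSMUSG00000050511, chr4:132110726-132144486, minus strand), the delta receptor, was at 4.23, 4.77, 5.04 and 6.18 FPKM in the dorsal and at 4.44, 5.77, 6.55 and 5.90 FPKM in the ventral libraries. The regions overlapped over most of their range. The means of 5.05 ± 0.820 and 5.67 ± 0.886 FPKM (SD, n = 4 each) gave a log2 ratio of 0.16, and the 95% interval of the log2(FPKM + 1) difference ran from -0.14 to 0.41 (limma adjusted p = 0.662). Oprd1 was above Oprm1 in all dorsal libraries but overlapped it in ventral MEC, and it was the higher of the pair in 6 of 8 libraries. The ratio of Oprm1 to Oprd1 was 0.899, 0.550, 0.702 and 0.649 in the dorsal and 1.10, 0.961, 0.83 and 1.10 in the ventral libraries. The dorsal D1 lay within the ventral range, and the log2 difference of 0.53 had an exact permutation p of 0.0571 (two-sided, 0.0571 adjusted), so a different dorsoventral change of the mu and delta receptors was not shown.

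**Figure D3:**
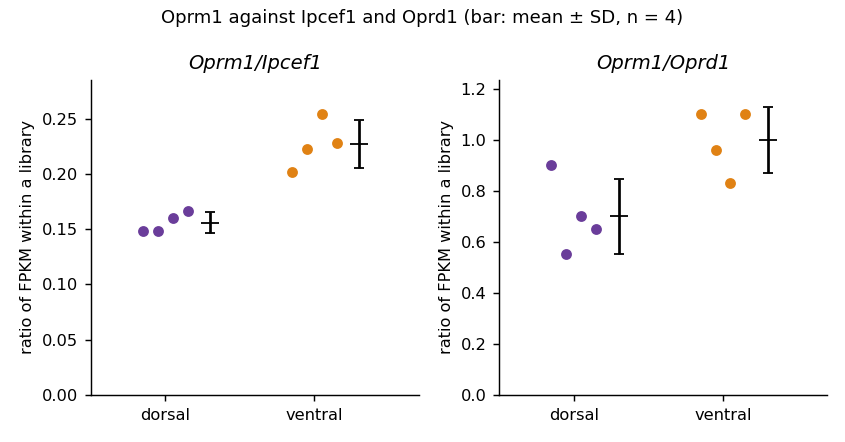
Ratio of the FPKM of Oprm1 to that of Ipcef1 (left) and of Oprd1 (right) in each library, with the mean ± SD of each region (n = 4). For Ipcef1 the dorsal libraries lie from 0.148 to 0.167 and the ventral ones from 0.202 to 0.255, while for Oprd1 the regions overlap.

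Oprl1 (ENSMUSG00000027584, chr2:181715016-181720985, plus strand), the nociceptin receptor, had the highest level of the 7 genes. It was at 8.00, 7.17, 8.31 and 7.68 FPKM in the dorsal and at 10.03, 9.19, 8.40 and 8.06 FPKM in the ventral libraries. Only the ventral V4 lay within the dorsal range. The means of 7.79 ± 0.486 and 8.92 ± 0.881 FPKM (SD, n = 4 each) gave a log2 ratio of 0.20, and the log2(FPKM + 1) difference of 0.17 had a 95% interval from -0.01 to 0.35 (limma adjusted p = 0.338).

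Oprk1 (ENSMUSG00000025905, chr1:5588466-5606131, plus strand), the kappa receptor, was the lowest, and the authors' status marks it as having too few alignments to test. It was at 0.443, 0.446, 0.431 and 0.722 FPKM in the dorsal and at 0.427, 0.449, 0.395 and 0.516 FPKM in the ventral libraries. The dorsal V2 stood well above the other 7. The means were 0.511 ± 0.141 and 0.447 ± 0.0512 FPKM (SD, n = 4 each), a difference of -0.0638 FPKM (exact permutation test, two-sided p = 0.571). Without V2 the difference was 0.0066 FPKM, so its sign rested on that library.

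**Figure D4:**
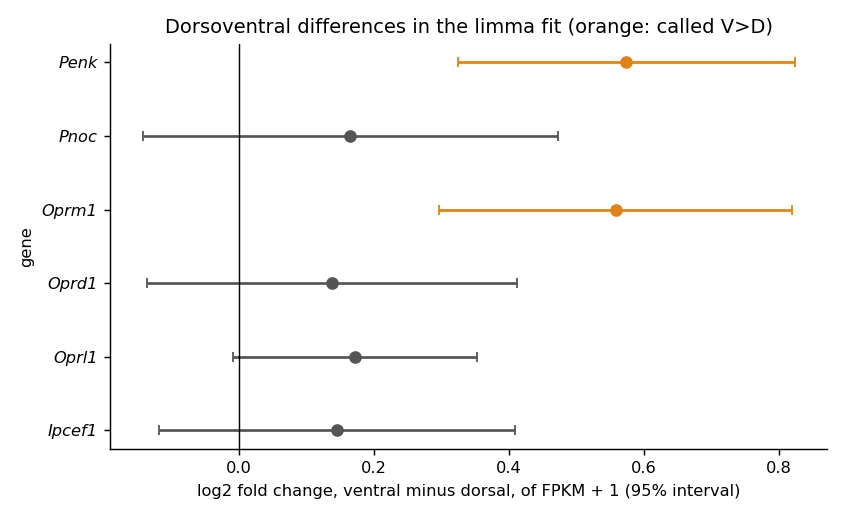
Difference between ventral and dorsal libraries on the log2(FPKM + 1) scale with its 95% interval from limma, for the 5 opioid genes in the fit and for Ipcef1. The intervals of Penk (0.32 to 0.82) and Oprm1 (0.30 to 0.82) lie above 0, and the other 4 include 0.

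By level per length, the order over the 8 libraries was Oprl1 (mean 8.35 FPKM), Oprd1 (5.36), Oprm1 (4.54), Penk (2.50), Pnoc (1.66), Pdyn (0.972) and Oprk1 (0.479). Neighbors in this order were apart in both regions except for 2 pairs. Oprd1 and Oprm1 overlapped in ventral MEC, and Penk and Pnoc overlapped in dorsal MEC, where Penk was the lower in 1 library. In these bulk samples the receptors other than Oprk1 exceeded every precursor within each of the 8 libraries. Against all genes tested even Oprl1 was of middling level, with 51.4% of genes below its mean, and Penk had 19.2% and Pnoc 10.1% below.

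Within ventral MEC Penk and Oprm1 ranked the libraries differently. Penk was highest in D3 and lowest in V3, and Oprm1 was highest in V4 and lowest in D3. For each gene in the fit, the 3 genes with the most similar values over the 8 libraries were taken by Pearson's r of log2(FPKM + 1), as a description with no test, since 8 libraries of 2 regions share their regional contrast. For Penk these were Ttc22 (r = 0.98), AC122013.1 (0.98) and Ncrna00086 (0.97), of which AC122013.1 was called V>D (log2 ratio 0.72, limma adjusted p = 0.0185). For Oprm1 these included Fstl5 (0.97) and Ahi1 (0.97). Fstl5 (log2 ratio 0.66, adjusted p = 0.0444) and Ahi1 (0.47, adjusted p = 0.0172) were called V>D. The closest genes to Pnoc (Mettl20, Slc18b1 and 4922502B01Rik, r from 0.947 to 0.954), to Oprd1 (Ccdc55, Ubap2l and Upf3a, 0.973 to 0.987) and to Oprl1 (Plcxd1, Ptprf and Ccdc159, 0.940 to 0.971) were not called.

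The machinery around the peptides and receptors was read from 6 lists. Of their 51 genes 49 were in the fit, and 6 (12.2%) were called, 2 V>D and 4 D>V, beside 3.60% of all genes tested. The median log2 ratio was 0.01. Among enzymes and chaperones of prohormone processing, 1 of 8 was called by limma. An unadjusted p under 0.05 was found for 3 of the 8, all lower in ventral MEC (16.0% of all genes tested reached that level). Pcsk1, a convertase that cuts opioid precursors, fell from 19.7 ± 1.92 FPKM in dorsal to 13.8 ± 0.703 FPKM in ventral MEC (SD, n = 4 each, log2 ratio -0.51, limma adjusted p = 0.00942). Its direction was opposite to that of Penk, and it was called with each library left out, though not after rescaling to one total FPKM (adjusted p = 0.0561). Pcsk2, another convertase, was at 85.5 ± 4.11 and 73.1 ± 2.39 FPKM and did not pass (limma adjusted p = 0.0714). Cpe, the carboxypeptidase that trims the cut peptides, was at 571 ± 45.4 and 586 ± 45.7 FPKM and did not pass. Of the 8 peptidases that break opioid peptides down none was called by limma and 3 had an unadjusted p under 0.05, a level that 16.0% of all genes tested reached, and neprilysin (Mme) was at 9.55 ± 1.24 and 8.18 ± 0.630 FPKM.

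Downstream of the receptors, none of 5 Gi/o alpha subunits was called or had an unadjusted p under 0.05 in the limma fit (16.0% of all genes tested), Gnao1 being the most abundant at 360 ± 60.7 and 393 ± 98.6 FPKM. Of 13 effectors in the fit 4 were called, in both directions. The adenylyl cyclase Adcy5, a Gi-inhibited form, was higher in ventral MEC (8.05 ± 0.405 and 10.9 ± 0.543 FPKM, log2 ratio 0.43, adjusted p = 0.0103), and Adcy2 was lower there (27.3 ± 0.792 and 20.1 ± 1.33 FPKM, -0.44, adjusted p = 0.0053). The calcium channel subunit genes also split, with Cacna1e (R type) called V>D (log2 ratio 0.27, adjusted p = 0.0337) and Cacna1a (P/Q type) called D>V (-0.31, adjusted p = 0.0240). The calls for Adcy2 and Adcy5 held in 8 of 8 fits with a library left out, against 3 of 8 for Cacna1a and 1 of 8 for Cacna1e. The call for Cacna1a was lost without D1, V1, V2, D3 or D4 (adjusted p up to 0.0872), that for Cacna1e without any library but V4 (up to 0.120), and both after rescaling (0.0826 and 0.0829). The potassium channel genes Kcnj3, Kcnj6 and Kcnj9 did not pass, and Kcnj5 lay below the filter.

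A list of 13 genes held factors of receptor desensitization, RGS proteins, which switch off Gi/o signals, and Wls, which is neither. Among these 13 genes Rgs4 was called D>V (94.8 ± 4.93 and 73.6 ± 7.00 FPKM, SD, n = 4 each, log2 ratio -0.37, limma adjusted p = 0.0286). That call held only without D3 or V3 (2 of 8 fits, adjusted p up to 0.0842 in the others) and was lost under quantile normalization (0.0654) and rescaling (0.110). The arrestins Arrb1 and Arrb2 and the receptor kinases did not pass. Of the 13 genes 7, in both directions and with Wls among them, had an unadjusted limma p under 0.05, a level that 16.0% of all genes tested reached. Of the remaining list, Ogfr and Cxcr7, an atypical receptor that binds opioid peptides, did not pass, and Pomc, the precursor of beta-endorphin, lay below the filter at 0.621 ± 0.224 and 0.475 ± 0.240 FPKM.

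**Figure D5:**
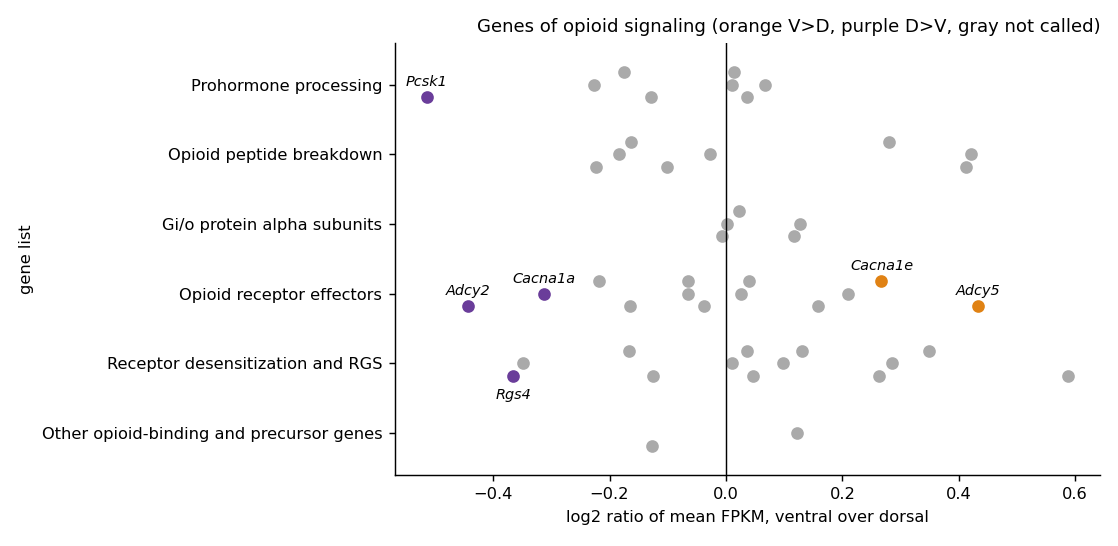
Log2 ratio of ventral to dorsal mean FPKM for the 49 genes in the fit of 6 lists around opioid signaling, one row a list, with genes called V>D in orange, D>V in purple and not called in gray. The 6 called genes are named and lie on both sides of 0.

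Several cell type marker lists differed along the same axis. In bulk tissue fewer cells of a type and less RNA per cell cannot be told apart, and the part of these lists in the results for Penk and Oprm1 was not tested. Of 9 markers of GABAergic interneurons, 1 was called V>D and 3 D>V, with Sst, the peptide of a class of interneurons, at 109 ± 29.4 and 220 ± 41.1 FPKM (log2 ratio 1.01, limma adjusted p = 0.0147). The 3 called D>V were Pvalb (15.7 ± 2.15 and 6.63 ± 0.961 FPKM, -1.24), Npy (18.4 ± 2.15 and 9.08 ± 1.87 FPKM, -1.02) and Lamp5 (43.3 ± 2.65 and 28.3 ± 1.49 FPKM, -0.61). The summed level of that list overlapped between regions (710 to 859 and 777 to 970 FPKM). Cck made up most of it (454 ± 46.3 and 460 ± 64.1 FPKM), so the sum says little about the other genes of the list. The list genes not called were Gad1 (log2 ratio -0.15), Gad2 (0.14), Slc32a1 (0.01), Vip (0.14) and Cck (0.02). All 6 oligodendrocyte markers were called D>V, with sums of 808 to 1074 FPKM in dorsal and 447 to 586 FPKM in ventral libraries. Of 4 leptomeningeal markers 1, Dcn, was called V>D (24.3 ± 4.43 and 48.4 ± 6.49 FPKM, adjusted p = 0.00246). Their sums, most of which was Dcn itself, were apart at 26.3 to 35.0 and 49.5 to 63.3 FPKM. Col1a2 (log2 ratio 0.52, limma adjusted p = 0.144) and Lum (0.39, 0.571) overlapped between regions and were not called, and Col1a1 lay below the filter.

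Penk is abundant in striatal projection neurons. Of 8 markers of striatal and extended amygdala projection neurons 5 were in the fit, with Tac1 called V>D (3.88 ± 0.629 and 7.93 ± 0.728 FPKM, limma adjusted p = 0.00178) and Ppp1r1b called D>V (10.8 ± 1.39 and 6.30 ± 0.966 FPKM). Isl1 was listed at 0 in all libraries, Drd2 and Adora2a lay under 1 FPKM, and the summed level overlapped at 24.7 to 25.7 and 25.2 to 28.9 FPKM. Of 6 markers of deep cortical layers none was called by limma and 3 had an unadjusted p under 0.05 (16.0% of all genes tested), and all 6 had the higher mean in ventral MEC, beside 48.8% of all genes tested, and their sums were apart at 59.8 to 75.8 and 76.9 to 88.0 FPKM. Of 4 dentate granule cell markers Calb1 was called V>D (4.57 ± 0.169 and 7.85 ± 2.05 FPKM), while Dsp and C1ql2 lay under 1 FPKM. The study lists Calb1 among the genes of layer II of the MEC itself, so in this tissue it does not mark dentate cells alone. Prox1 went the other way and was not called (4.48 ± 0.491 and 3.49 ± 0.462 FPKM, log2 ratio -0.36, limma adjusted p = 0.177). The sums of the 4 were 8.37 to 9.74 and 10.3 to 14.2 FPKM, nearly all of it Calb1 and Prox1.

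The remaining lists had no called gene apart from Slc17a6, D>V, among the 6 glutamatergic markers, whose sums overlapped at 587 to 742 and 601 to 765 FPKM. The sums were 8.96 to 9.84 and 11.3 to 11.9 FPKM for 2 markers of oligodendrocyte precursors, 154 to 164 and 171 to 185 FPKM for 5 of astrocytes, 38.5 to 41.7 and 43.1 to 47.6 FPKM for 5 of microglia, and 12.01 to 16.0 and 9.47 to 12.7 FPKM for 4 of endothelial cells. In the limma fit 1, 3, 2 and 1 genes of these lists had an unadjusted p under 0.05, beside 16.0% of all genes tested.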

How the data were processed

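RNA-Seq libraries of dorsal and ventral MEC were made from 120 ng of total RNA with an RNA integrity number of 7.1 to 8.5 (amplified cDNA, Ovation RNA-Seq System, paired-end HiSeq). Per the submitters' notes and the study's methods, the authors used CASAVA 1.8, TopHat2 2.0.8 and Cuffdiff 2 with the Ensembl annotation of GRCm38. The deposited values are FPKM for each gene and library, made by the authors with Cuffdiff, which scales fragments to exon length and library. How fragments in exon bases shared by genes of opposite strands were divided is not given in the sources used here. The authors' comparison table also holds their fold changes, p-values and q-values, which were not used. Its regional mean FPKM served only to assign libraries to regions and its status to filter genes. In all, 4 columns of per-sample values, estimated fragments and FPKM by condition and replicate number, were not used, since they could not be matched to single samples, and no count test was run.

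Genes with the authors' status OK and a mean FPKM of at least 1 (13674) were compared with limma 3.58.1 (R 4.3.3, mean-variance trend) on log2(FPKM + 1), adjusted by Benjamini-Hochberg. Fold changes on this scale understate those of low genes. Members below the filter and ratios were compared by exact permutation tests (SciPy 1.17.1), two-sided. P-values measure the spread between pools. The fit was tested on simulated data. Positions, coding sequences and shared exonic bases are those of GENCODE M21 (GRCm38). The FPKM were made on the authors' own Ensembl annotation, whose exons may differ. The members, the pathway and marker lists and the tests were chosen with earlier results of these data known. Named are the 7 members, genes that overlap them or share their locus, list genes past the threshold (at most 3 a list and direction), the 3 genes most similar to each member in the fit, and markers beside a result. Of the genes this rule takes, 1 is not reported here. List genes that did not pass are named as examples of their role and were chosen after their values were seen. Alternatives covered the added constant, filters, scaling, weights, the call rule, the headers' regions and leaving out each library. The 2 ratios of Oprm1 and the use of limma's fold change in the call rule were added after seeing the data.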

Additional observations from a re-analysis of the deposited data

Results flagged for a closer look

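In 2 of 14 groups of 4 libraries (7 genes in 2 regions) a library stood far from the other 3 by Dixon's criterion, which flags about 1 in 20 groups by chance. For Penk in dorsal MEC the low library D1 (1.56 FPKM) was separated by 0.854 of the group's range. For Oprk1 in dorsal MEC the high library V2 (0.722 FPKM) was separated by 0.947 of the range.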

How the results depend on the processing

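No paired analysis was possible because neither labels nor columns say which group of mice a library came from. Naming regions by the headers left 1 gene called (0 V>D, 1 D>V, 721 at an unadjusted p under 0.05 in limma, against 2191 with the regions used here), 0 opioid genes and 0 pathway genes, turned the log2 ratios of Penk (-0.23), Pnoc (-0.19) and Oprl1 (-0.11), left that of Oprd1 at 0.16, and gave differences of 0.0924 FPKM for Pdyn, 0.109 FPKM for Oprk1 (exact permutation p = 0.0286), and log2 differences of 0.0107 for Oprm1 to Ipcef1 and -0.15 for Oprm1 to Oprd1. The 4 libraries whose header and region match gave 0 calls in limma (1232 at an unadjusted p under 0.05), 0 of them opioid or pathway genes, with log2 ratios of 0.66 for Penk (adjusted p = 0.497) and 0.71 for Oprm1 (0.366), against 0.83 and 0.68 with all 8 libraries. A filter at 0.1 FPKM whatever the status called 1 opioid gene, one at 5 FPKM called 0 since it removed Penk and Oprm1, and rescaling to one total FPKM called 2 pathway genes (Adcy2 and Adcy5). Leaving out each library gave 0 to 1 opioid genes, 3 to 5 pathway genes, 248 to 532 genes in all (91 to 191 V>D, 157 to 341 D>V), differences of -0.0889 to -0.0066 FPKM for Pdyn and -0.0904 to 0.0066 FPKM for Oprk1, and log2 differences of 0.48 to 0.59 for Oprm1 to Ipcef1 and 0.42 to 0.65 for Oprm1 to Oprd1. The fewest calls in all came without V1 (248) and D3 (254), and counts also fell by over 1.5 times without D2 (327) and V2 (327). The cause of these changes was not tested. Fragment counts were not examined here, so no counting error is given.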
